A study of Homo sapiens with 4 samples.

Results

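Crosslink sites in the mRNAs of the clustered histone genes were examined in the iCLIP lists of PDCD4 and of isotype control IgG. A site was taken as a member when the gene label in the deposited list held a symbol that starts with HIST1H, HIST2H, HIST3H or HIST4H, the names used in Ensembl release 88. This gave 116 of the 158922 sites of the PDCD4 list and 43 of the 111361 sites of the IgG list, in 46 of the 90 clustered histone genes and pseudogenes that RefSeq knows under such a symbol. PDCD4 is an RNA-binding tumour suppressor, and iCLIP marks the nucleotides at which RNA was fixed to a protein by UV light, because reverse transcription tends to end next to the crosslink. All 4 samples were unmodified MCF10A cells, an established line of non-transformed breast epithelium: 2 were immunoprecipitated with PDCD4 antibody and 2 with IgG, and the labels name no other difference between the groups. Each deposited list pools the 2 samples of its group. There is thus no spread between replicates and no test of PDCD4 against IgG, and the intervals below cover counting error only.

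The clustered histone genes encode the linker histone H1 and the core histones H2A, H2B, H3 and H4, which package DNA, and their mRNAs are made mainly during S phase. These mRNAs usually lack introns and a poly(A) tail. They end instead just after a conserved stem-loop in the 3′UTR, which is bound by SLBP and is needed for processing, translation and decay of the message. The histone gene copies within a family encode nearly the same protein, so that their coding sequences resemble each other closely.

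The score of a site is the number of cDNAs counted there. The PDCD4 list held 409308 cDNAs in all and the IgG list 276139, and values below are given per 10000 cDNAs of a list. The labelled cell type was checked with marker genes. All 10 epithelial genes had sites, with 3 to 808 PDCD4 cDNAs a gene and 0 to 267 IgG cDNAs, while the 4 blood and endothelial genes and the 2 liver genes (albumin and apolipoprotein A1) had none in either list. IgG crosslink sites were subtracted from those of PDCD4 by the authors before peaks were called, according to the methods, and 0 of the 116 histone positions of PDCD4 were also in the IgG list. Over all genes 721 positions were in both, 0.454% of the PDCD4 list, so that 0 of 116 is close to the share of the whole list. The subtraction takes sites from the PDCD4 list only. How far it lowered the PDCD4 sums and ratios of genes and families with IgG sites was not tested.

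The sequences around the highest PDCD4 site of 1 gene per family are shown first, because the listed sites in histone mRNAs lay in coding sequence or 5′UTR and none was listed at the stem-loop. For each family, the gene with the largest PDCD4 sum is given with the 30 nt around its highest PDCD4 site, read 5′ to 3′ from the GRCh38 genome, with the crosslinked base in capitals.
HIST1H1E, chr6:26156956-26156985, plus strand: cgaaggccaaagcagTtaaacccaaggcgg
HIST1H2AE, chr6:26217199-26217228, plus strand: gaagacccgcatcatCccgcgccacctgca
HIST1H2BN, chr6:27865555-27865584, plus strand: gggcaacgccgcccgCgacaacaagaagac
HIST1H3J, chr6:27890372-27890401, minus strand: tccgtggcgagcgagCataatcccctgctc
HIST1H4H, chr6:26285208-26285237, minus strand: tctacgcgctgaagcGacagggacgcactc
The scores of these sites were 6, 3, 5, 3 and 6 cDNAs, in that order. For HIST1H2AE 2 sites and for HIST1H3J 4 sites shared the highest score, of which 1 is shown. Most PDCD4 sites labelled HIST1H3J lie in the exon of HIST1H2AM. The exon of HIST1H3J itself held 3 PDCD4 and 4 IgG cDNAs. Other genes of a family can hold a higher site, such as HIST1H1C and HIST1H1D with a score of 7. All printed sites lie in coding sequence. The site labelled HIST1H2BN lies by its coordinate in the coding sequence of HIST1H2AL, the authors' label held both genes, and the window printed for it is H2A sequence. The stem-loops of the same mRNAs follow, with the loop bases in capitals, for the linker histone gene and the H4 gene.
HIST1H1E, chr6:26157095-26157110, plus strand: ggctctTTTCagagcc
HIST1H4H, chr6:26285131-26285146, minus strand: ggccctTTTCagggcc
A stem-loop of this form (GGNNCT as the 5′ arm, TTTN as the loop and AGNNCC as the 3′ arm, with at most 2 of the fixed letters different, on the strand of the gene) was found within 150 nt after the stop codon in all 71 protein-coding members, 68 of them without a mismatch. It began 23 to 68 nt after the stop codon, with a median of 36.

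Taken over all families, clustered histone mRNAs held a larger share of the PDCD4 cDNAs than of the IgG cDNAs. The 116 PDCD4 sites had a summed score of 308 cDNAs, which is 7.52 per 10000 (95% counting interval 6.71 to 8.41). The 43 IgG sites had 119 cDNAs, or 4.31 per 10000 (3.57 to 5.16). With 1 cDNA added to each sum, the log2 ratio of PDCD4 to IgG was 0.80 (0.49 to 1.10), a 1.74-fold difference. With only sites in exons of canonical transcripts, the log2 ratio was 1.01 (0.69 to 1.34). The median over the 7297 genes with at least 20 cDNAs in both lists together was -0.09. That median covers sites of all regions, whereas the histone sites were mostly coding. In other genes, coding sequence held 20.1% of the PDCD4 sites and 9.18% of the IgG sites. Counted as sites, the coding sequence of histone genes had 101 for PDCD4 and 31 for IgG, and that of other genes 31998 and 10215. Coding sites of other genes thus leaned towards PDCD4 as well. The gap between 0.80 and -0.09 therefore does not show an excess particular to histone genes. Whether the histone excess differs from that of coding sites in other genes was not tested. The lysates are bulk samples without a measure of RNA level, so that more expressing cells, more RNA per cell and more crosslinking per RNA cannot be told apart. Histone sites were a small part of either list, 0.073% of PDCD4 sites and 0.0386% of IgG sites, and 4001 genes had more PDCD4 cDNAs than the leading histone gene.

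The excess was unequal between families. By label, linker histone H1, which binds the DNA between nucleosomes, had 44 PDCD4 cDNAs at 11 sites and 5 IgG cDNAs at 2 sites, a log2 ratio of 2.34 (1.11 to 3.57). By numbers of sites the H1 ratio was 1.49 (-0.34 to 3.31) and at scores greater than 5 it was 2.80 (-0.08 to 5.68), so that in both the interval includes 0. For H3, the core histone whose tail carries many of the known chromatin marks, 62 PDCD4 cDNAs stood against 9 IgG cDNAs, a log2 ratio of 2.09 (1.13 to 3.05). The partner of H3 in the nucleosome core, H4, had 64 PDCD4 and 17 IgG cDNAs, with a log2 ratio of 1.28 (0.53 to 2.04). In contrast, H2A and H2B, which pair with each other, had smaller ratios whose intervals include 0. H2A had 51 PDCD4 and 28 IgG cDNAs (log2 ratio 0.27, -0.38 to 0.93), and H2B had 102 and 60 (0.19, -0.27 to 0.64). H2B was thus the family with the most cDNAs in both lists, 2.49 per 10000 for PDCD4 and 2.17 for IgG. The 60 IgG cDNAs of H2B include 10 of the pseudogene HIST2H2BB, which had no PDCD4 site.

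**Figure D1:**
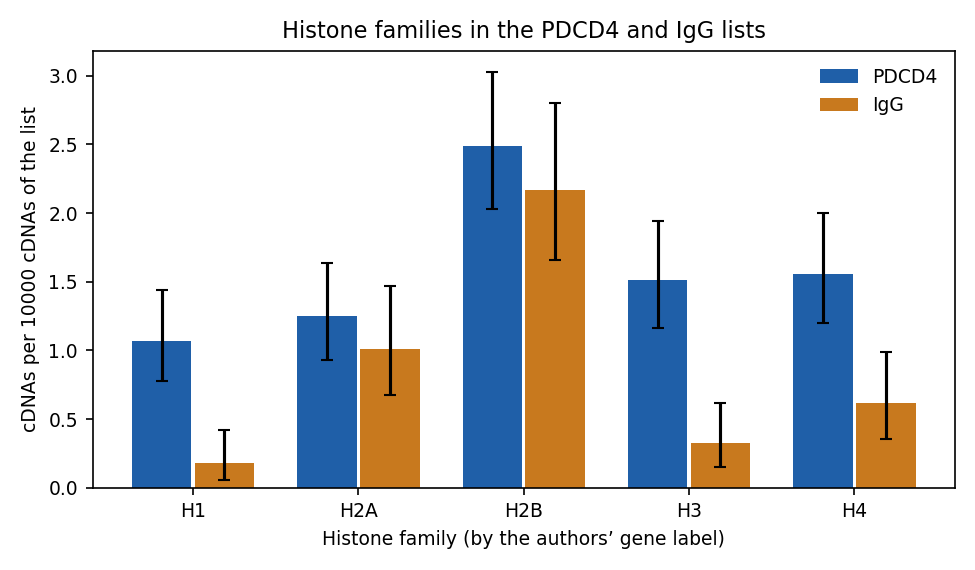
cDNAs per 10000 cDNAs of the list (vertical axis) for each histone family, with PDCD4 in blue and IgG in orange, 1 pooled list each; error bars are 95% counting intervals. PDCD4 bars stand apart from IgG for H1, H3 and H4, while the intervals of H2A and H2B overlap (2.49 against 2.17 for H2B).

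The differences between families were set against their counting error. The log2 ratio of H1 was higher than that of H2A by 2.06 (0.67 to 3.46) and than that of H2B by 2.15 (0.84 to 3.46). H2B was lower than H3 by a difference of -1.90 (-2.97 to -0.83) and lower than H4 by -1.10 (-1.98 to -0.22). For H2A the difference from H3 was -1.81 (-2.98 to -0.65) and that from H4 -1.01 (-2.01 to -0.01). H1 and H3 differed by 0.25 with an interval from -1.31 to 1.81, H1 and H4 by 1.05 (-0.39 to 2.50), H3 and H4 by 0.80 (-0.42 to 2.03) and H2A and H2B by 0.09 (-0.71 to 0.89), so that these 4 of the 10 pairs were not separated at this depth. The separation of H2A from H4 was lost by exon (-0.92, -1.90 to 0.05) and without the largest gene of each family (-0.72, -1.78 to 0.33), and that of H2B from H4 without the largest genes (-0.77, -1.71 to 0.18). By numbers of sites, 2 of the 10 pairs were separated, H3 from H2A (-2.12, -3.93 to -0.30, H2A minus H3) and H3 from H2B (-1.91, -3.60 to -0.22, H2B minus H3). Without the largest genes, H3 stood above H4 by 1.78 (0.32 to 3.25). Without HIST1H4H, its largest gene, H4 had a log2 ratio of 0.62 (-0.18 to 1.42), and without HIST1H1E that of H1 was 1.49 (0.21 to 2.78). At scores greater than 5 the H4 ratio turned to -1.26 (-2.53 to 0.01), on 2 PDCD4 sites and 1 IgG site. The intervals are not adjusted for the 10 pairs, and they ignore that neighbouring sites are not independent.

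PDCD4 sites were found in 38 histone genes and IgG sites in 23. Of these 46 genes, 15 had both (32.6%), 23 had PDCD4 sites alone (50%) and 8 IgG sites alone (17.4%). Over the 9049 genes of the lists whose summed score was, like that of the histone genes, 2 to 33 cDNAs, the shares were 55.9%, 27.8% and 16.3%. These genes match the histone genes in the range of sums only, not in how sums are spread within it. Only 5 histone genes reached 20 cDNAs over both lists, and 4 of them were at least 2-fold higher in PDCD4, while over all genes of that size 16.4% were at least 2-fold higher and 16.0% at least 2-fold lower. By exon, HIST1H3J (3 PDCD4 and 4 IgG cDNAs) and HIST1H2BN (17 PDCD4 cDNAs and no IgG site in its own exon) no longer reached 20 cDNAs. With 5 genes this share carries little information, and for the pair without an IgG site the ratio rests on the added cDNA, so that no fold is given for them.

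Among linker histones, HIST1H1E (current symbol H1-4, chr6:26156329-26157115) had 6 PDCD4 sites with scores of 2, 4, 2, 5, 1 and 6 in the order of the mRNA, 20 cDNAs in all, and no IgG site was listed. The first pair lay in the 5′UTR, 18 and 16 nt upstream of the start codon, and the others in the coding sequence, where the site at nt 581 had the highest score. HIST1H1C, which encodes the H1.2 subtype, had 3 PDCD4 sites with scores of 7, 1 and 3 at coding nt 226, 227 and 359. Its IgG sites, with scores of 4 and 1, lay at nt 154 and 151. The sums of 11 PDCD4 and 5 IgG cDNAs gave a log2 ratio of 0.43 (-0.98 to 1.85), which does not separate the pooled lists. The study has HIST1H1C in its list of differentially bound genes, from an analysis with DESeq2 that was not repeated here. HIST1H1D and HIST1H1B, 2 further linker histone genes, had a single PDCD4 site each, with scores of 7 and 6, and no IgG site.

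The linker histones therefore held most of the tall sites. Scores above 5 were reached by 6 PDCD4 sites in histone genes, of which 4 lay in H1 genes (HIST1H1C, HIST1H1D, HIST1H1E and HIST1H1B) and the others in HIST1H4B and HIST1H4H. The mean score of a PDCD4 site was 4.0 cDNAs in H1 and 2.30 to 2.78 in the core histone families. A single IgG site in a histone gene exceeded 5, with a score of 7 in HIST1H4D. Sites above this score made up 5.17% of PDCD4 histone sites, compared with 1.48% of all PDCD4 sites, but these are only 6 sites.

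In the H4 family, HIST1H4H (H4C8, chr6:26277609-26285638) had 8 PDCD4 sites and no listed IgG site. From the 5′ end, their scores were 4 in the 5′UTR, then 2, 1, 3, 4, 6, 2 and 2 in the coding sequence, 24 cDNAs together. Per kb of its canonical transcript this was 1.43 cDNAs per 10000, the highest PDCD4 level among the histone genes, followed by HIST4H4 with 0.889. HIST4H4, which lies on chromosome 12 outside the large clusters, had 15 PDCD4 cDNAs at 5 sites and 2 IgG cDNAs at 1 site (log2 ratio 1.85, 0.07 to 3.63). HIST1H4D was the opposite case, with IgG scores of 2 and 7 and no PDCD4 site listed after the subtraction of IgG sites. Most H4 copies encode the same protein, and the gene with the largest PDCD4 sum and the one with the largest IgG sum were different.

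For H3, the authors' labels gave HIST1H3J the largest PDCD4 sum, 16 cDNAs at 6 sites against 4 IgG cDNAs at 1 site, a log2 ratio of 1.20 (-0.24 to 2.64). Of these sites 5 lie in the exon of HIST1H2AM, the neighbouring gene on the same strand, which overlaps the annotated span of HIST1H3J (chr6:27890315-27893106). In the exon of HIST1H3J itself there was 1 PDCD4 site with a score of 3 and 1 IgG site with a score of 4, and the log2 ratio turned to -0.89 (-2.79 to 1.01). HIST1H3H followed with PDCD4 scores of 3, 2, 2, 1, 1 and 3, HIST1H3D with 11 cDNAs and HIST1H3G with 9, and none of the 3 had an IgG site. By exon instead of label, the H3 family had 49 PDCD4 and 9 IgG cDNAs and a log2 ratio of 1.75 (0.77 to 2.73).

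Genes of the H2A and H2B families were found on both sides. HIST1H2AE had 6 PDCD4 sites with scores of 1, 2, 3, 1, 3 and 2, placed as 2 groups of neighbouring nucleotides from coding nt 237 and 370 onwards, and no IgG site. HIST1H2AC, in contrast, had 1 PDCD4 site with a score of 4, outside the exon of its canonical transcript, and 5 IgG sites with scores of 2, 3, 2, 2 and 2. Its 4 PDCD4 and 11 IgG cDNAs gave a log2 ratio of -1.83 (-3.34 to -0.33). HIST1H2BN had the largest histone sum of the PDCD4 list by label, 28 cDNAs at 11 sites against 5 IgG cDNAs at 2 sites (log2 ratio 1.71, 0.44 to 2.97). Its own exon held 7 of these PDCD4 sites with 17 cDNAs, and the other 4 lay in HIST1H2AL. HIST1H2BC, which led the IgG list, had PDCD4 scores of 3, 3, 2, 1 and 2 and IgG scores of 4, 3, 5 and 3. Its log2 ratio of -0.98 (-2.06 to 0.10) did not separate the lists.

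**Figure D2:**
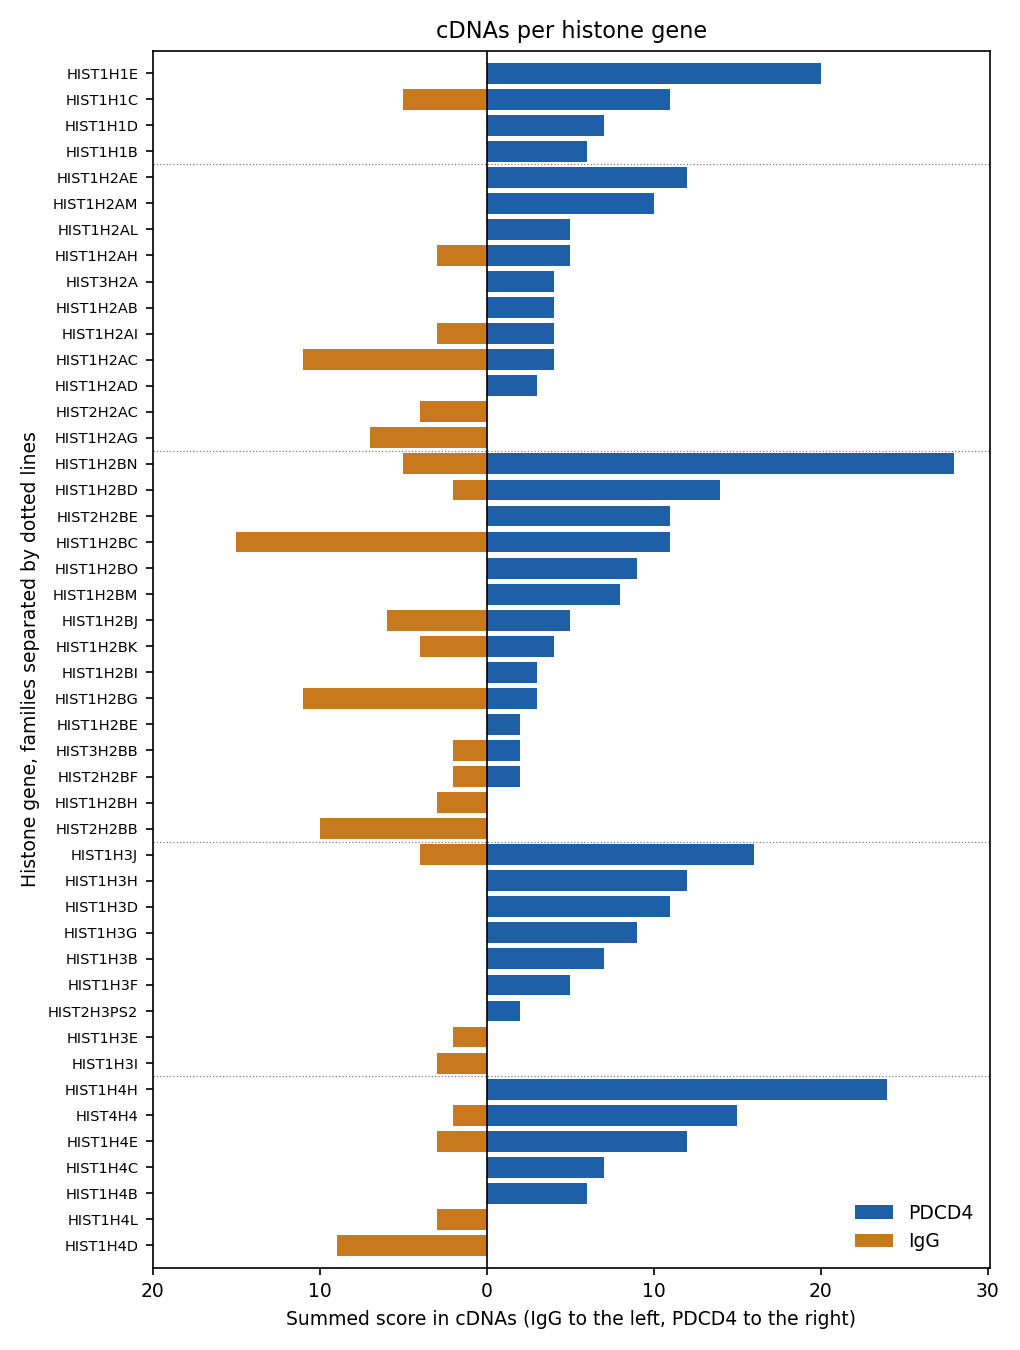
Summed score in cDNAs (horizontal axis) of each of the 46 histone genes with a site, by the authors' label, with PDCD4 to the right in blue and IgG to the left in orange; dotted lines separate the families. H1, H3 and H4 genes extend mainly to the right, and H2A and H2B genes to both sides, with 15 IgG cDNAs for HIST1H2BC.

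The position of the sites along the mRNA was examined next. Coding sequence held 101 of the 116 PDCD4 sites, a share of 87.1% (95% Wilson interval 79.8% to 92.0%), and the 5′UTR 14 sites (12.1%, 7.33% to 19.2%). No PDCD4 site and no IgG site lay in a histone 3′UTR. In the IgG list, 31 of 43 sites were coding (72.1%, 57.3% to 83.3%), 3 were in the 5′UTR and 9 lay outside the exons of canonical mRNAs. For sites in other genes, canonical coding sequence held 20.1% of the PDCD4 list and 9.18% of the IgG list. Histone mRNAs consist mostly of coding sequence, and over all coding members the canonical transcripts offered 28281 nt of coding sequence and 2842 nt of 5′UTR. Relative to that length, the 5′UTR had 4.93 PDCD4 sites per 1000 nt and the coding sequence 3.57, and the IgG list 1.06 and 1.10.

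Of the 9 IgG sites outside canonical mRNAs, 5 belonged to HIST2H2BB, an H2B pseudogene on chromosome 1 with no PDCD4 site. Its scores were 3, 1, 1, 1 and 4. The 3 sites with a score of 1 are neighbouring bases in a run of T, and the 30 nt after them occur 16219 to 16740 times in the genome, so that the origin of these cDNAs is uncertain. The others were single sites labelled HIST1H2AC, HIST1H2BN, HIST1H3E and HIST3H2BB.

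Within the coding sequence, PDCD4 sites lay more often towards the stop codon. When each coding sequence was cut into 3 equal parts, the last part held 50 of 101 sites (49.5%, 40% to 59.1%), the middle part 34 (33.7%) and the first part 17 (16.8%, 10.8% to 25.3%). In the coding sequences of other genes the last, middle and first parts held 33.3%, 33.1% and 33.6% of PDCD4 sites. Counting neighbouring sites (at most 5 nt apart) once gave 32 of 65 in the last part (49.2%, 37.5% to 61.1%). In both counts, sites at matching places of different gene copies stayed separate. Of all PDCD4 sites in the last part, 8 lay at nt 354 to 360 of H3. At nt 301 to 304 of H2A there were 6, and at nt 293 to 295 of H4 there were 5. These places held 1, 2 and 2 IgG sites. The IgG sites in histone coding sequence divided into 11, 8 and 12 from the first to the last part, and their intervals overlapped those of PDCD4, as 38.7% (23.7% to 56.2%) in the last part shows.

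**Figure D3:**
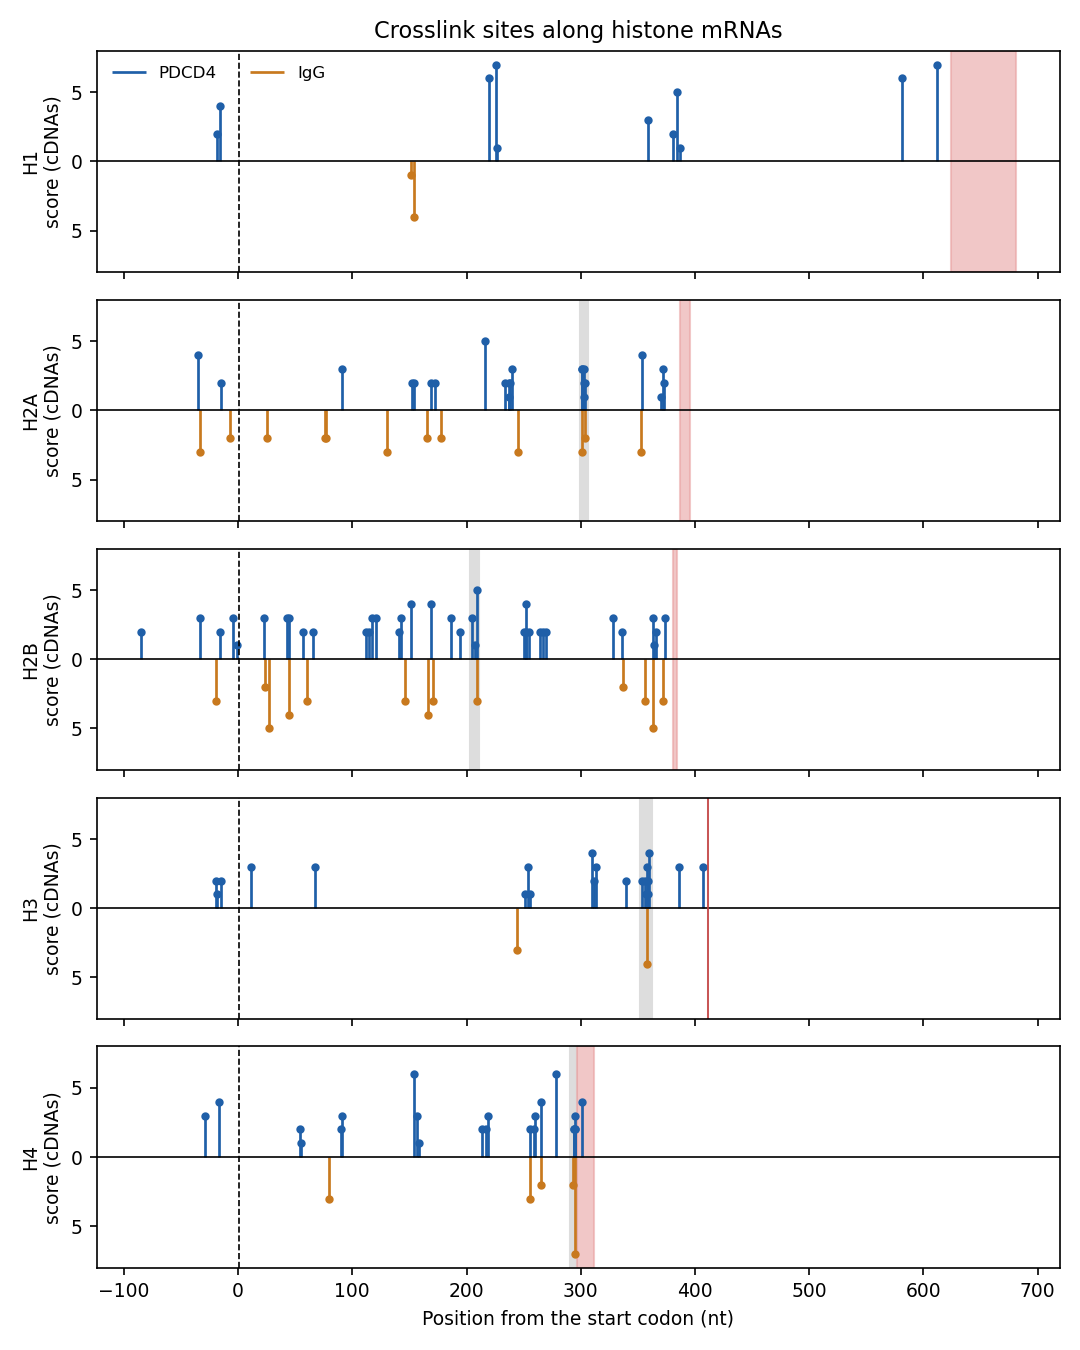
Score in cDNAs (vertical axis, PDCD4 upwards in blue and IgG downwards in orange) of each site against its position in nt from the start codon (dashed line), for all genes of a family together. Only sites in coding sequence and 5′UTR are drawn. Red marks the range of coding sequence ends in the family, and grey marks stretches with sites in at least 3 genes. H3 and H4 sites gather in the right part of the coding sequence.

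No crosslink site was listed near the stem-loop. Among PDCD4 sites in histone mRNAs the one nearest to the 3′ end lay 60 nt before the last base of the stem-loop, and among IgG sites the nearest lay 61 nt before it. The 60-nt window that ends with the stem-loop therefore held 0 sites in both lists, and the 60-nt window before it held 30 PDCD4 and 10 IgG sites. Coding sites reached as close as 4 nt to the end of the stop codon (PDCD4, HIST1H3J) and 9 nt (IgG, HIST1H2BC). The end of other mRNAs was also poor in sites. In 19665 other protein-coding genes, 112 PDCD4 sites fell in the last 60 nt of the canonical transcript and 1372 in the preceding 60 nt (log2 ratio -3.61, -3.89 to -3.34). For IgG these numbers were 70 and 617 (-3.14, -3.50 to -2.78). How much of the gap at histone ends comes from the minimum length of a mappable cDNA was not tested. A site that failed the authors' filter on false discovery rate is not listed, so 0 sites here does not mean 0 cDNAs.

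**Figure D4:**
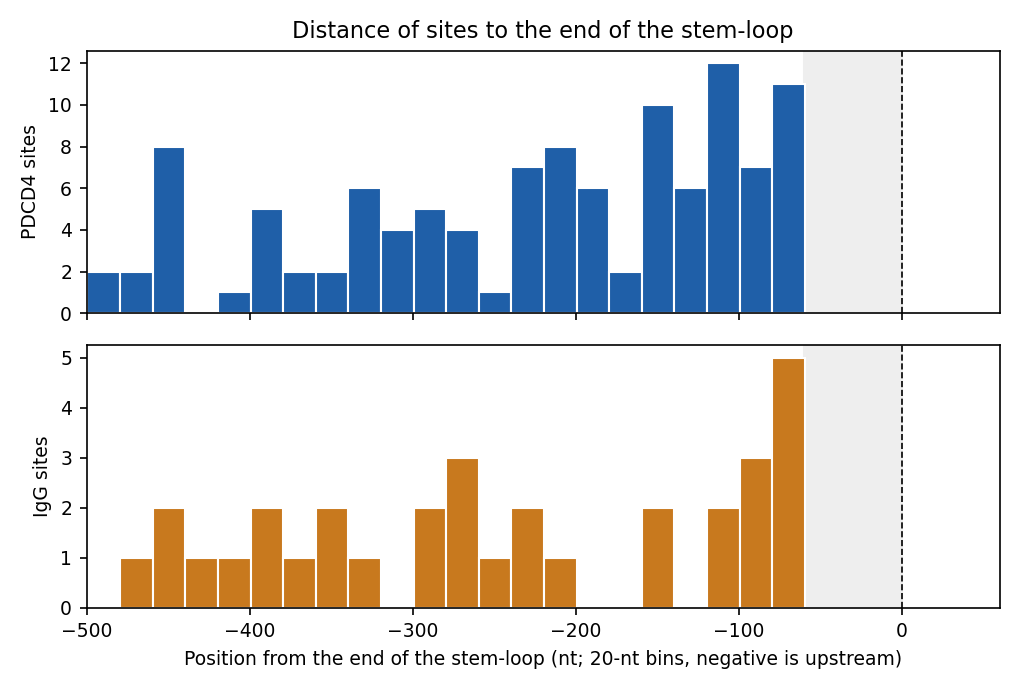
Number of sites in bins of 20 nt (vertical axis) against the position relative to the last base of the stem-loop (dashed line at 0), PDCD4 above and IgG below. Not drawn are 4 PDCD4 and 2 IgG sites more than 500 nt upstream, and 1 PDCD4 and 9 IgG sites outside the exons of canonical mRNAs. The grey 60-nt window up to the end of the stem-loop is empty in both lists, while 30 PDCD4 and 10 IgG sites lie in the 60 nt before it.

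Sites recurred at matching places of different copies of a family. Positions were counted from the start codon, and a stretch was noted where sites no more than 2 nt apart came from at least 3 genes. There were 4 such stretches, with 22 PDCD4 and 6 IgG sites, and all 4 held sites of both lists. In H3 the stretch at nt 354 to 360 had PDCD4 sites in HIST1H3B, HIST1H3D and HIST1H3H (8 sites, 16 cDNAs) and an IgG site in HIST1H3J (4 cDNAs). In H4 the stretch at nt 293 to 295 had PDCD4 sites in HIST1H4E, HIST1H4H and HIST4H4 (5 sites, 11 cDNAs) and IgG sites in HIST1H4D (2 sites, 9 cDNAs). The remaining stretches were nt 301 to 304 in H2A, with 6 PDCD4 sites in 3 genes and 2 IgG sites in 2 other genes, and nt 205 to 209 in H2B, with 3 PDCD4 sites and 1 IgG site.

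The windows around nt 295 of the H4 coding sequence show how close these places are, with the crosslinked base in capitals.
HIST1H4H, PDCD4 score 2, chr6:26285191-26285220, minus strand: cagggacgcactcttTacggcttcggtggc
HIST1H4E, PDCD4 score 2, chr6:26204924-26204953, plus strand: cagggacgcactcttTacggcttcggcggc
HIST4H4, PDCD4 score 3, chr12:14770776-14770805, minus strand: cagggtcgcacccttTatggtttcggcggt
HIST1H4D, IgG score 7, chr6:26188768-26188797, minus strand: cagggacgcactcttTatggcttcggcggc
At nt 358 of the H3 coding sequence the same pattern was seen.
HIST1H3B, PDCD4 score 3, chr6:26031689-26031718, minus strand: gctaagcgagtgactAttatgcccaaagac
HIST1H3H, PDCD4 score 1, chr6:27810416-27810445, plus strand: gccaagcgggtgactAtcatgcccaaggac
HIST1H3J, IgG score 4, chr6:27890421-27890450, minus strand: gccaagcgtgtcactAttatgcctaaggac
In all, 9 coding positions had a PDCD4 site in one copy and an IgG site in another copy of the same family (13 PDCD4 and 9 IgG sites). On the genome, 5 of the 116 PDCD4 sites lay within 5 nt of an IgG site and 11 within 30 nt. A subtraction by genomic position leaves such matching positions in the PDCD4 list.

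The similarity of the copies limits how surely a site belongs to 1 gene. The 30 nt that follow the site occurred more than once in the genome for 19 of 116 PDCD4 sites (16.4%, 10.7% to 24.2%) and for 8 of 43 IgG sites (18.6%, 9.74% to 32.6%). Most of them were in H2B, with 14 of 36 PDCD4 and 7 of 20 IgG sites. Sites were assigned here by exon, or by label where no exon held them. The IgG sites in H2B include HIST2H2BB sites outside its exon, whose next 30 nt occur 235 to 16740 times in the genome. That exceeds the 90 clustered histone genes and pseudogenes, so these matches are not similarity of histone copies. None of the sites in H1 or H4 had such a copy, in either list. When only sites with a single copy were kept, the log2 ratio was 2.34 for H1, 1.66 for H3, 1.28 for H4, 0.36 for H2A and -0.17 for H2B. The lengths of the sequenced cDNAs are not in the lists, so that longer reads may have separated these copies.

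The crosslinked base itself was T in 42 of 116 PDCD4 sites (36.2%, 28.0% to 45.3%) and C in 41 (35.3%, 27.2% to 44.4%). In the IgG list T was found at 21 of 43 sites (48.8%, 34.6% to 63.2%) and C at 6 (14%, 6.56% to 27.3%). T makes up 15.6% of the coding sequence of the histone genes with PDCD4 sites and C 30.1%. Restricted to coding sites, T stood at 30.7% of PDCD4 sites in histone genes (22.5% to 40.3%) and 34.2% of those in other genes, and C at 37.6% (28.8% to 47.4%) and 33.2%. Among the 31 IgG coding sites in histone genes, T stood at 48.4% (32% to 65.2%), compared with 35.9% in other genes. The share of C among them was 12.9% (5.13% to 28.9%), compared with 31.9% in other genes.

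Histone genes outside the clusters, most of which encode replication-independent variants, were compared as a list of 12. Sites were found in 11 of them, with 302 PDCD4 and 140 IgG cDNAs and a log2 ratio of 0.54 (0.25 to 0.82). Only 5 reached 20 cDNAs, with a median log2 ratio of 0.34, and 1 of the 5 was at least 2-fold higher and none at least 2-fold lower, against 16.4% and 16.0% of all genes of that size. That gene was H3F3B, 1 of the genes of the H3.3 variant, with 76 PDCD4 and 13 IgG cDNAs (log2 ratio 1.89, 1.07 to 2.71). H2AFY, which encodes macroH2A1, had the largest sum, 107 PDCD4 and 68 IgG cDNAs, and a log2 ratio of 0.08 (-0.36 to 0.51). For CENPA, the H3 variant of centromeres, the sums were 56 and 28 cDNAs (0.41, -0.24 to 1.05).

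Genes that make, process or degrade histone mRNA did not lean one way as a list. Of 17 genes, all with sites, 9 reached 20 cDNAs, 1 was at least 2-fold higher and 3 at least 2-fold lower, and the median log2 ratio was -0.08. These counts over 9 genes carry little information beside 16.4% and 16.0% of all genes. The genes past 2-fold are named although all but CPSF2 were below the 50 cDNAs set for this list. SLBP, the stem-loop binding protein, was the higher one, with 31 PDCD4 and 7 IgG cDNAs (1.43, 0.31 to 2.55). SYMPK, a scaffold of the cleavage complex, had 86 and 30 (0.92, 0.33 to 1.51), and ERI1, an exonuclease that trims histone mRNA ends, 55 and 24 (0.60, -0.08 to 1.28). CPSF2, a subunit of the same complex, had 23 and 41 (-1.38, -2.10 to -0.65). The other lower genes were CASP8AP2 with 17 and 26 (-1.15, -2.01 to -0.29) and E2F1, a transcription factor of the cell cycle, with 10 and 14 (-1.02, -2.14 to 0.11). For UPF1, a helicase of mRNA decay, the sums were 62 and 44 (-0.08, -0.63 to 0.47), and for NPAT, the activator of histone gene transcription, 28 and 24 (-0.35, -1.13 to 0.42).

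All 13 histone chaperone genes had sites, and 10 reached 20 cDNAs, with a median log2 ratio of -0.12, 3 at least 2-fold higher and none at least 2-fold lower. Over 10 genes these counts carry little information beside the 16.4% and 16.0% of all genes. The higher ones were CHAF1A, the large subunit of chromatin assembly factor 1, with 70 PDCD4 and 13 IgG cDNAs (1.77, 0.95 to 2.60), SSRP1 of the FACT complex with 46 and 12 (1.29, 0.40 to 2.17), and NASP, a chaperone of H3 and H4, with 39 and 11 (1.17, 0.24 to 2.10). The abundant chaperone NPM1 had 143 and 102 (-0.08, -0.45 to 0.28). HIRA, a chaperone of H3.3, had 30 and 34 (-0.74, -1.44 to -0.05) and NAP1L1 124 and 112 (-0.42, -0.79 to -0.06), so that both intervals lie below 0. NAP1L4 (84 and 43 cDNAs), ATRX (100 and 78) and SUPT16H (64 and 53) had log2 ratios of 0.38, -0.21 and -0.30, with intervals that include 0.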

How the data were processed

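iCLIP was measured in 2 PDCD4 and 2 IgG samples of MCF10A cells. The deposited scores are raw cDNA counts per 1-nt site. Per the methods, the authors mapped reads to the Ensembl release 88 genome (GRCh38), subtracted IgG sites from PDCD4 sites, called peaks with iCount and pooled replicates; a filter on scores greater than 5 named there is not in the files and served as an alternative. Alignment settings and the treatment of reads with several matches are not given in the sources used here.

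Scores were summed by the authors' gene labels, a site with several labels counting for each gene and once per family. The identifiers of 43 of 46 symbols matched GENCODE release 44 (same build), and RefSeq synonyms gave the others. Sites were placed on canonical transcripts, and all 71 coding members read a start and a stop codon at the annotated ends. Log2 ratios carry a pseudocount of 1 with 95% intervals from counting error, shares have Wilson intervals, and no p-value was computed. RNA abundance was not analysed here. Since cDNAs of neighbouring sites are not independent, intervals and depth (409308 and 276139 counts in the deposited lists) cover counting error only.

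Members and lists were chosen with earlier results of these data known. HIST1H1C was named as the clustered histone gene in the study's list of differentially bound genes. The other named genes were histone genes with at least 20 cDNAs, the leading gene of each family in each list, and comparison genes with at least 50. Genes named outside this rule, the 3 parts of coding sequence, the recurring positions, the exon-based assignment, the alternatives of the differences between families and the search of the whole genome were chosen after values were seen. Ratio intervals were run on simulated counts of genes with at least 20 cDNAs, drawn independently for each gene, as the interval formula assumes. For PDCD4 over IgG they held the true ratio for 95.5% of 7097 unchanged genes and 96.5% of 200 changed genes. This checks the formula only, because most histone genes were below 20 cDNAs and neighbouring sites are not independent. Python 3.11.15, numpy 2.4.6, pandas 2.3.3, scipy 1.17.1, pysam and matplotlib 3.10.9 were used.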

Additional observations from a re-analysis of the deposited data

How the results depend on the processing

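No paired analysis was possible because each list pools its replicates, and for the same reason no replicate could be left out. Of 136 values of lists, families, positions and bases under an alternative, 122 stayed within their interval or within 1.5 times. Scores greater than 5 left 7 histone sites: the log2 ratio of all histone genes was then 0.33, that of H4 turned to -1.26 and that of the chaperones to -0.24, all remaining sites of both lists were coding (100% and 100%), and 51.3% of the genes left were at least 2-fold higher; H2A, H2B and H3 had no site left. With windows of 40 nt, the window before the last one held 11 PDCD4 and 5 IgG sites and the last one none; with windows of 80 nt, the last one held 11 and 5. Summed scores in the 60-nt window before the last were 80 and 34. The next 20 nt were shared for 35.3% of PDCD4 and 30.2% of IgG sites, against 16.4% and 16.3% for 30 nt in canonical transcripts. H2A and H2B ratios changed sign under some alternatives, within their intervals (H2A -0.22 with single labels, H2B -0.15 without HIST1H2BN).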
